A study of Mus musculus with 8 samples.

Results

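Chromatin accessibility was examined at 10 genes of the transforming growth factor beta (TGF-β) pathway in mouse squamous cell carcinoma (SCC) cells that differed in focal adhesion kinase (FAK). The genes were the ligand genes *Tgfb1*, *Tgfb2* and *Tgfb3*, the receptor genes *Tgfbr1*, *Tgfbr2* and *Tgfbr3*, the signal transducer genes *Smad2* and *Smad3*, and the genes of the inhibitors *Smad7* and *Skil*. They were chosen as components of the pathway and are 10 of 55413 annotated genes. An ATAC-seq peak belonged to a gene when it overlapped the gene body or the 20 kb upstream of it. Overlapping peaks of the 8 libraries were joined into called regions, and 64 of the 69399 called regions of the genome lay at these genes.

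TGF-β ligands are secreted in a latent form and are released by proteases or by mechanical pull through integrins. The freed ligand binds the type II receptor, which phosphorylates the type I receptor, and the type I receptor then phosphorylates SMAD2 and SMAD3, which enter the nucleus with SMAD4 and act on genes together with partner factors such as AP-1. In skin, the pathway is known for restraining keratinocyte growth in normal epidermis and for its part in invasion and epithelial-mesenchymal transition in carcinoma.

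All lines came from SCC of K14CreER FAK flox/flox mice of the FVB strain, induced with DMBA and TPA and driven by Ha-Ras. In K14CreER mice a tamoxifen-inducible Cre recombinase is expressed from the keratin 14 promoter of basal keratinocytes, and the *Ptk2* gene that encodes FAK was deleted in culture with 4-hydroxytamoxifen. The FAK-/- cells lack FAK. The other lines carry the same deletion and were made from a clone of these cells by retroviral re-expression of wild-type FAK (FAK-WT), of FAK mutated in its nuclear localization sequence (FAK-nls) or of kinase-deficient FAK (FAK-kd), with hygromycin selection. Each construct was represented by 1 line with 2 libraries, so a construct and its line cannot be told apart. The questions were which accessible regions depend on FAK, on its nuclear localization and on its kinase activity.

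ATAC-seq marks open chromatin by the insertion of a transposase, and the data were lists of peaks called in each library. The lists held 24383 to 53703 peaks on chromosomes 1 to 19, X and Y, with both FAK-nls lists the shortest. The fold enrichment of a peak is the ratio of its read pileup to the local background of the same library. Its general level differed between libraries, with a median from 4.50 in the first FAK-nls library to 5.59 in the first FAK-WT library over the regions called in all 8, so the fold values below are given as deposited and the tests use values centred on each library's median. The reads behind the lists and the sequencing depth of the libraries were not used here, and no counting interval is given. No region at *Ptk2* separated FAK-WT from another line, so the peaks at that gene did not check the labels. The labelled cell type was set against its defining markers. None of 7 squamous keratinocyte genes (*Krt5*, *Krt14*, *Trp63*, *Cdh1*, *Sfn*, *Itgb4* and *Lamb3*) and neither of 2 simple epithelial keratin genes had a called peak over an annotated transcription start site (TSS) in any library, and 4 of the 7 had none within 1 kb in any library, while *Krt14*, *Itgb4* and *Lamb3* had one there in 1, 3 and 2 libraries. Within 1 kb the simple epithelial gene *Krt8* had a peak in 5 libraries and *Krt18* in none. Of 5 fibroblast markers, *Pdgfra* and *Pdgfrb* had a called peak at a TSS in all 8 libraries, *Col1a2* and *Thy1* had one within 1 kb in 8 and 6 libraries, and *Dcn* had none. *Pmel*, 1 of 3 melanocyte markers, had one at a TSS in all 8 libraries and the other two had none within 1 kb. None of 4 leukocyte markers had one within 1 kb. Of 3 endothelial markers *Cdh5* had one at a TSS in 2 libraries, *Pecam1* had one within 1 kb in 1 library and *Tek* had none. The peak lists thus held no call over a TSS of the 7 marker genes of the labelled cell type, in any of the 4 lines. No share over all genes stands beside these marker counts, and a TSS without a call may still be open.

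The calls at the pathway genes were most stable at the start sites. All 10 genes had a called region at their own TSS. These regions made 79 of 80 possible calls, and the missing call was at *Tgfb1* in the first FAK-nls library. Counting also 2 regions at the TSS of a neighbouring gene, 10 of 12 regions at a TSS were called in all 8 libraries (83.3%, against 66.8% of all regions at a TSS). Away from a TSS, 11 of 52 were called in all 8 (21.2%, against 16.6%). Over the 64 regions, 21 were called in all 8 libraries (32.8%, against 25.8% of all regions), and 16 in 1 library (25.0%, against 28.6%). By position, 37 of the 64 regions were intronic, 13 lay upstream, 10 were at the own TSS and 4 were on exons away from it.

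The genes differed in how many regions they held. *Smad3* had 18 and *Tgfbr3* 14, while *Smad2* and *Skil* had 2 each. Per 100 kb of the searched window, *Smad7* held 14.5 regions, *Smad3* 13.7 and *Tgfb1* 10.5, and *Smad2* held 2.24. The libraries differed as well. Of the 64 regions, 52 and 37 were called in the FAK-WT libraries, 48 and 39 in the FAK-/- libraries, 24 and 29 in the FAK-nls libraries and 36 and 47 in the FAK-kd libraries. The first FAK-WT library was the highest and the FAK-nls libraries were the lowest in the whole lists too. In the FAK-WT libraries 81.2% and 57.8% of the 64 regions were called, beside 77.0% and 55.9% of all regions. The shares were 75.0% and 60.9% in FAK-/-, beside 61.7% and 50.4%. In FAK-nls they were 37.5% and 45.3%, beside 34.9% and 35.7%, and in FAK-kd 56.2% and 73.4%, beside 47.1% and 65.8%. Each library's share of the 64 was above its share of all regions. When each list was held to its 24383 strongest peaks, the number in the shortest list, the counts were 31 and 27 (FAK-WT), 27 and 32 (FAK-/-), 24 and 29 (FAK-nls), and 25 and 32 (FAK-kd), of 42 regions. Of all regions at that number, 60.1% to 60.4% were called in each library. The groups then overlapped in their counts at the pathway genes.

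**Figure D1:**
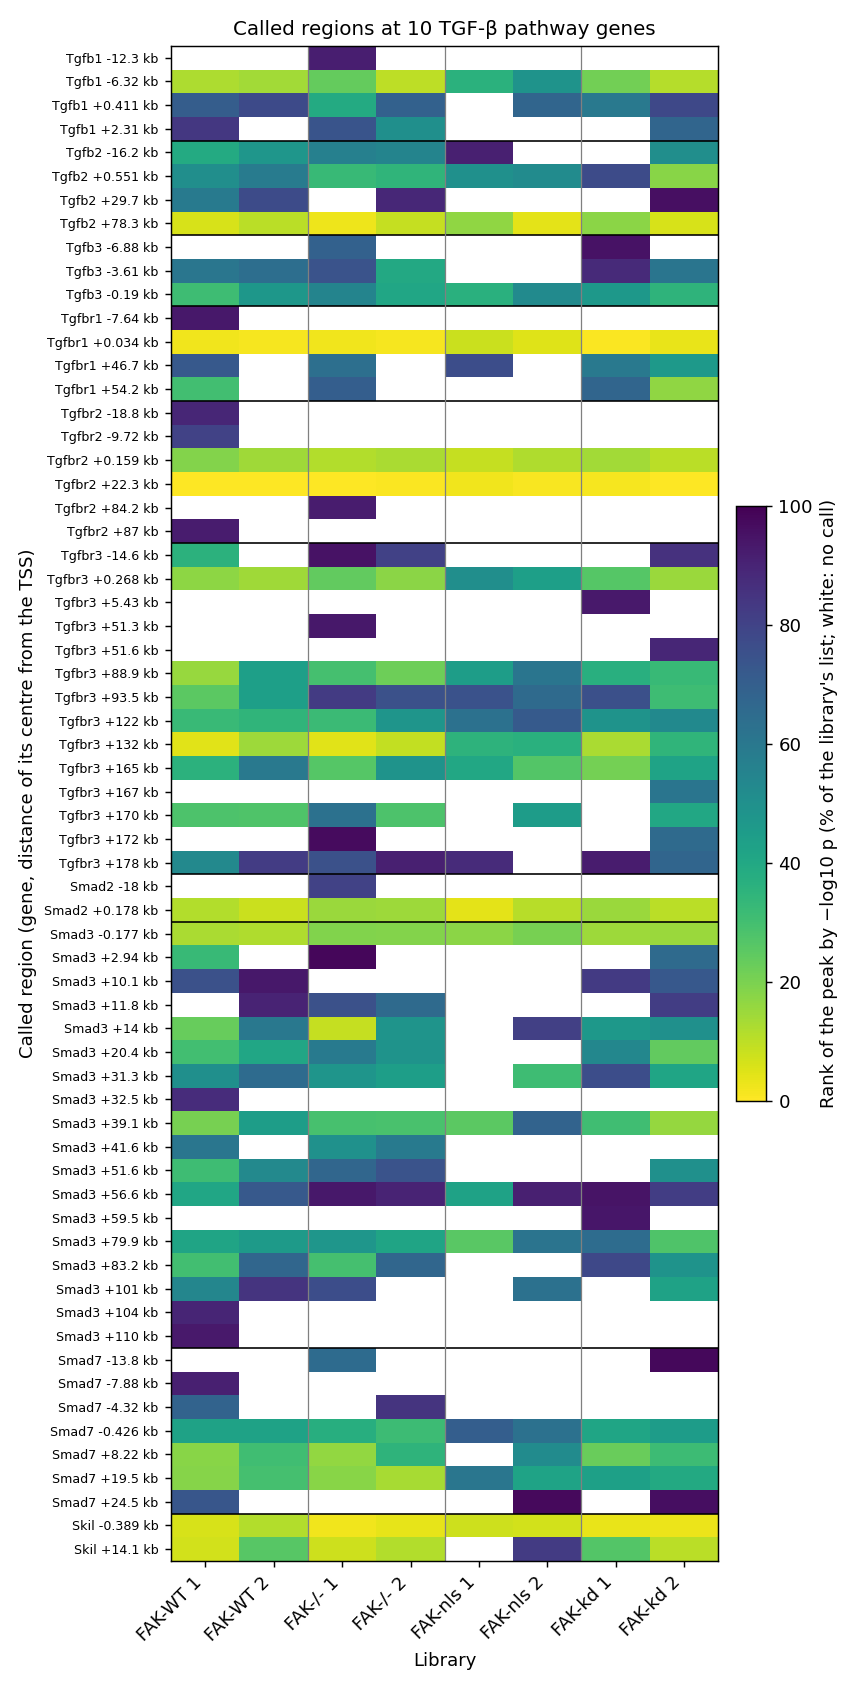
Each row is a called region, named by gene and by the distance of its centre from the TSS in kb (positive into the gene), and each column is a library. Colour gives the rank of the region's strongest peak by −log10 p as a percentage of that library's list (0% is the strongest peak) and white means no call. The start site regions and the *Tgfbr2* region at +22.3 kb are filled in all 8 columns, apart from *Tgfb1*, and both FAK-nls columns have the most white cells.

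FAK-WT was then compared with each other line by presence and absence. A region was WT-only if the FAK-WT pair had a call and the pair of the compared line had none, and reverse if the opposite held. At the pathway genes 1 of 64 regions was WT-only against FAK-/- (1.56%), with a background of 4.89% of all regions. Against FAK-nls 6 of 64 were WT-only (9.38%), with a background of 15.3%. Against FAK-kd 0 of 64 were WT-only, with a background of 4.33%. There was no reverse region at these genes in any comparison, where the backgrounds were 1.18%, 0.248% and 0.830% against FAK-/-, FAK-nls and FAK-kd. None of these WT-only or reverse shares at the pathway genes was therefore above its background. The 6 regions lay at *Smad3* (4), *Tgfb2* (1) and *Tgfb3* (1), and the region that was WT-only against FAK-/- was also among them.

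The counts were also taken with each library left out. The rule is then looser, since the line concerned is judged by its 1 remaining library. Such a count can only stay or rise, so a rise does not show that the counts rested on single libraries. Without the second FAK-WT library the WT-only counts were 10 against FAK-/-, 20 against FAK-nls and 10 against FAK-kd. The count against FAK-nls was 13 without the second FAK-nls library, that against FAK-kd was 5 without the second FAK-kd library, and that against FAK-/- was 2 without either FAK-/- library. Reverse regions against FAK-/- numbered 7 without the second FAK-/- library, 3 without the first FAK-WT library and 1 without the second. Reverse regions against FAK-kd numbered 4 and 3 without the first or the second FAK-kd library and 2 without the first FAK-WT library. The share over all regions was not computed with a library left out, so these counts cannot be set against a background. At 24383 peaks per library 2 regions were WT-only against FAK-/- (4.76%, background 3.44%), 2 against FAK-nls (4.76%, background 4.91%) and 0 against FAK-kd (background 3.10%), while 3 were reverse against FAK-/- (7.14%, background 3.31%), 0 against FAK-nls (background 4.23%) and 1 against FAK-kd (2.38%, background 2.64%).

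*Smad3* encodes a receptor-activated SMAD, which carries the signal into the nucleus and binds DNA directly. The gene (ENSMUSG00000032402.12) lies on the minus strand at chr9:63646767-63757994. It held 18 regions, 4 of them called in all 8 libraries. Of the 18, 16 and 12 were called in the FAK-WT libraries, 13 and 11 in the FAK-/- libraries, 4 and 7 in the FAK-nls libraries, and 10 and 13 in the FAK-kd libraries. The length covered by called peaks was 8560 and 5435 bp (FAK-WT), 5910 and 4669 bp (FAK-/-), 2112 and 2927 bp (FAK-nls), and 4860 and 6307 bp (FAK-kd). The FAK-WT calls were 88.9% and 66.7% of the 18 regions, beside 77.0% and 55.9% of all regions in those libraries. The FAK-/- calls were 72.2% and 61.1%, beside 61.7% and 50.4%. The FAK-nls calls were 22.2% and 38.9%, beside 34.9% and 35.7%, and the FAK-kd calls 55.6% and 72.2%, beside 47.1% and 65.8%. At 24383 peaks per library, 9 and 6 of 13 *Smad3* regions were called in the FAK-WT libraries (69.2% and 46.2%) and 7 and 9 in FAK-/- (53.8% and 69.2%). The counts were 4 and 7 in FAK-nls (30.8% and 53.8%) and 5 and 9 in FAK-kd (38.5% and 69.2%). Of all regions, 60.1% to 60.4% were called in each library at that number. FAK-nls then overlapped each other line.

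The 4 *Smad3* regions that were WT-only against FAK-nls are all intronic. The region at +20.4 kb (chr9:63737339-63737858) had a fold enrichment of 5.86 and 4.66 in the FAK-WT libraries, 3.94 and 4.06 in the FAK-/- libraries and 4.01 and 6.03 in the FAK-kd libraries, with no call in FAK-nls. Its peaks were 367 to 489 bp long and ranked between 11049 and 25288 in the 6 lists. The region at +51.6 kb (chr9:63706001-63706767) was at 5.25 and 4.19 in FAK-WT, 3.33 and 3.42 in FAK-/- and 4.30 in the second FAK-kd library only. The FAK-WT values lay above the FAK-/- values there, and its peaks ranked at 31.0% and 53.0% of the FAK-WT lists, where 0% is the strongest peak, and at 66.8% and 74.6% of the FAK-/- lists. The region at +83.2 kb (chr9:63674549-63674968) had a call in each of the 6 libraries outside FAK-nls, at 4.74 and 3.55 in FAK-WT, 4.32 and 3.54 in FAK-/- and 3.31 and 4.04 in FAK-kd. FAK-WT and FAK-/- overlapped there.

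The region at +10.1 kb (chr9:63747626-63748242) was the only one at these genes that was WT-only against FAK-/-, and it was also WT-only against FAK-nls. It was at 3.29 and 2.90 in FAK-WT and 3.18 and 3.39 in FAK-kd, with no call in the other 4 libraries. These were weak peaks, ranked 40460 of 53703 and 36516 of 39036 in the FAK-WT lists and 27353 of 32938 and 33326 of 45937 in the FAK-kd lists. At 24383 peaks per library the +10.1 kb region was called in no library. The +20.4 kb region was then called in 5 libraries and the +51.6 kb region in 3, both FAK-WT libraries among them in each case and no FAK-nls library. The +83.2 kb region was called in 4, with the first FAK-WT library among them. At that number the WT-only regions against FAK-/- were *Smad3* +51.5 kb, which lies within the +51.6 kb region, and *Tgfbr3* +93.5 kb, so none was shared with the set above. The reverse regions against FAK-/- were *Smad3* +31.3 kb and +41.7 kb and the TSS region of *Tgfb1*. Regions called in neither FAK-nls library and in all 6 others numbered 3 of 64 (4.69%), beside 4.12% of all regions.

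The sequences under these calls are shown for the *Smad3* introns, which held 4 of the 6 WT-only regions of the FAK-nls comparison. Each line gives the central 300 bases of a region on the plus strand of GRCm38 (the mm10 build), 5′ to 3′, from the RefSeq genome. Capitals mark exact matches to AP-1 (TGACTCA or its reverse complement TGAGTCA) or ETS (CCGGAAGT) motifs, the binding letters of Jun and Fos and of ETS factors. The windows are chr9:63737448-63737747, chr9:63706234-63706533, chr9:63674608-63674907 and chr9:63747784-63748083, in this order.
Smad3 +20.4 kb: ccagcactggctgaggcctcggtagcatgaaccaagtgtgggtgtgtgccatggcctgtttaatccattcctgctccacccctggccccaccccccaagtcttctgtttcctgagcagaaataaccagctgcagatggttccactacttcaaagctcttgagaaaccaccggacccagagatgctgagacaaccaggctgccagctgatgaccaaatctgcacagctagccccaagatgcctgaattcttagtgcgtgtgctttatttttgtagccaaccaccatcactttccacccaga
Smad3 +51.6 kb: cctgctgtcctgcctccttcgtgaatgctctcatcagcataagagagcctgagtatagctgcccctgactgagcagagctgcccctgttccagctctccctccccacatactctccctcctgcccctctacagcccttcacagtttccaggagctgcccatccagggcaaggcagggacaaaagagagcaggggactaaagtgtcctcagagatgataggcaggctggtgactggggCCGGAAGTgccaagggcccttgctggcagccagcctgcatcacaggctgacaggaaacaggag
Smad3 +83.2 kb: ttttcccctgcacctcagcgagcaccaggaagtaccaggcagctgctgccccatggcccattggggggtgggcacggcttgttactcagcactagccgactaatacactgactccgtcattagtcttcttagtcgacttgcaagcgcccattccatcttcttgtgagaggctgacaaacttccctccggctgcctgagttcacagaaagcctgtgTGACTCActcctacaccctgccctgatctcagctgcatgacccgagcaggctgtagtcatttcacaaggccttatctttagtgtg
Smad3 +10.1 kb: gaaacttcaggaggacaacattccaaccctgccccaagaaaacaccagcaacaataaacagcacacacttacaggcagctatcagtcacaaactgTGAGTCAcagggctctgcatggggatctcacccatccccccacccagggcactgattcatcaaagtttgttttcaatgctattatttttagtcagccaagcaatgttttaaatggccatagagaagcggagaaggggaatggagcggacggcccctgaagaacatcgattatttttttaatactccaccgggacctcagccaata

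The +20.4 kb sequence of *Smad3*, the region of the set with the best worst rank over the FAK-WT pair, held none of the searched motifs. The +51.6 kb sequence held an ETS match, and the +83.2 kb and +10.1 kb sequences held an AP-1 match each. Over the central 300 bp of all pathway regions away from a TSS, 25 of 52 held the AP-1 letters (48.1%), beside 33.6% of all such regions of the genome, and at a TSS 1 of 12 did, beside 6.50%. The ETS letters were in 1 of 64 regions (1.56%, against 1.23% of all) and the palindromic SMAD element GTCTAGAC in 1 (1.56%, against 0.239%). The SMAD element was in the TSS region of *Smad7*. These matches are descriptions of the letters in a window, and the search covered both strands and no degenerate positions.

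Of the remaining *Smad3* regions, 4 were called in all 8 libraries and 4 in 1 library each. The TSS region (chr9:63757749-63758593), 1 of those called in all 8, was at 5.43 and 4.96 in FAK-WT, 4.64 and 4.84 in FAK-/-, 5.02 and 5.01 in FAK-nls and 4.78 and 5.50 in FAK-kd. Both FAK-/- values lay under both FAK-WT values, and the other lines overlapped FAK-WT. After centring each library on its median the FAK-/- values overlapped FAK-WT, while both FAK-nls values lay above it, with a difference of FAK-WT of -0.13 that did not pass (limma, adjusted p = 0.695). The intronic region at +56.6 kb was at 4.53 and 3.68 in FAK-WT, 2.75 and 3.07 in FAK-/-, 4.47 and 3.51 in FAK-nls and 2.90 and 3.21 in FAK-kd. FAK-WT and FAK-nls overlapped at this region, and both lay above FAK-/- and FAK-kd. Its difference in log2 fold enrichment between FAK-WT and FAK-/- was 0.38 (SE 0.15, 95% interval 0.07 to 0.69) and did not pass adjustment over the genome (limma, adjusted p = 0.539), nor did that against FAK-kd of 0.39 (SE 0.15, 95% interval 0.08 to 0.70, limma, adjusted p = 0.673). *Smad2*, the other receptor-activated SMAD, differed from *Smad3* in holding 1 stable region. Its TSS region (chr18:76241024-76242493) had a fold enrichment of 5.22 and 4.72 in FAK-WT, 4.87 and 4.78 in FAK-/-, 5.42 and 5.07 in FAK-nls, and 4.50 and 4.94 in FAK-kd, with peaks of 1280 to 1470 bp. Each line overlapped FAK-WT in these fold values. After centring, both FAK-WT values lay under those of FAK-/- and FAK-nls, by -0.07 and -0.26 in log2, and neither difference passed (limma, adjusted p = 0.958 and 0.395). Its only other region, at -18.0 kb, was called in the first FAK-/- library at 3.63.

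**Figure D2:**
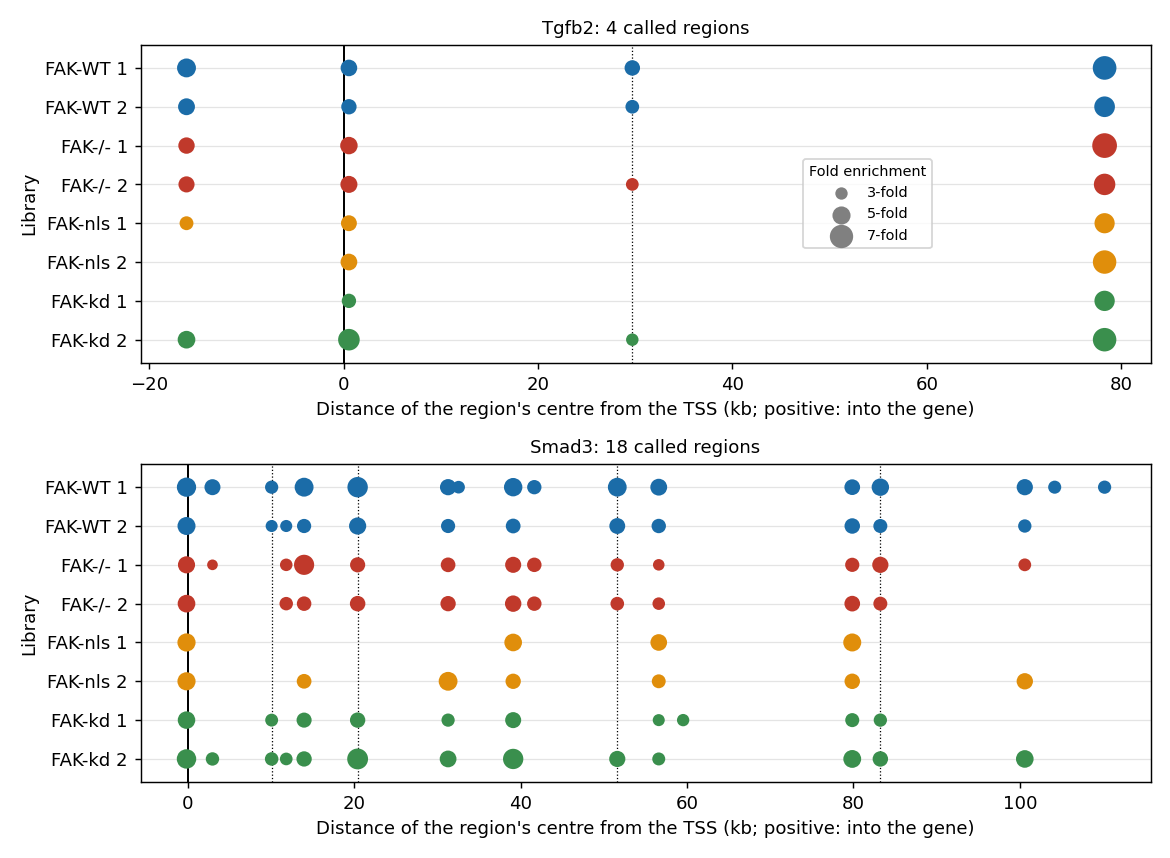
Calls along *Tgfb2* and *Smad3* in the 8 libraries, by distance of each region's centre from the TSS in kb. Dot area grows with fold enrichment, the solid line is the TSS and dotted lines are regions that were WT-only against FAK-nls or FAK-/-. At *Smad3* the FAK-nls rows hold 4 and 7 of the 18 regions, and the FAK-WT rows 16 and 12.

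*Tgfb2* encodes a ligand that depends on the co-receptor betaglycan for high-affinity binding. The gene (ENSMUSG00000039239.14, minus strand, chr1:186622792-186705989) held 4 regions, and 2 of them had calls in all 8 libraries. The strongest lay in an intron at +78.3 kb (chr1:186627267-186628141), at 7.14 and 5.96 in FAK-WT, 7.57 and 6.27 in FAK-/-, 5.78 and 7.06 in FAK-nls, and 5.83 and 7.08 in FAK-kd. It ranked between 1022 and 5775 in its lists, within the strongest 17.5% of each, and its groups overlapped in these fold values. After centring, both FAK-WT values lay under those of FAK-/- and FAK-nls, by -0.19 and -0.15 in log2, and neither difference passed (limma, adjusted p = 0.833 and 0.631). The TSS region (chr1:186705099-186705777, also the TSS of *Gm29491*) was at 4.45 and 4.01 in FAK-WT, 4.76 and 4.60 in FAK-/-, 4.20 and 4.50 in FAK-nls and 3.67 and 6.32 in FAK-kd. Both FAK-/- values lay above both FAK-WT values, and the FAK-kd libraries stood at the lowest and the highest value. After centring, FAK-WT lay under FAK-nls as well. The upstream region at -16.2 kb had calls in FAK-WT (5.29 and 4.55), both FAK-/- libraries (4.38 and 4.28), the first FAK-nls library (3.50) and the second FAK-kd library (4.84). The intronic region at +29.7 kb (chr1:186676011-186676564), was at 4.05 and 3.45 in FAK-WT, 3.13 in the second FAK-/- library and 3.04 in the second FAK-kd library. It was WT-only against FAK-nls, with ranks of 31674 and 30065 in the FAK-WT lists, past the end of both FAK-nls lists, and at 24383 peaks per library it was called in none.

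*Tgfb1* encodes the ligand that predominates in most tissues. Its gene (ENSMUSG00000002603.15, plus strand, chr7:25687002-25705077) held 4 regions. The TSS region (chr7:25686669-25688158) was among the weaker start site regions, at 3.15 and 2.99 in FAK-WT, 3.52 and 2.91 in FAK-/-, 3.89 in the second FAK-nls library and 3.41 and 3.18 in FAK-kd. It was not called in the first FAK-nls library. At 24383 peaks per library this region kept its call in the FAK-/- pair and lost it in the FAK-WT pair, and so was reverse. The strongest region in the window, at -6.32 kb, was at the TSS of the neighbouring gene *B9d2* and was called in all 8 libraries at 4.46 to 6.38. A further region at +2.31 kb was called in 4 libraries, at 2.82 to 3.47. These were the first FAK-WT library, both FAK-/- libraries and the second FAK-kd library.

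*Tgfb3* encodes the remaining ligand, known for its role in palate fusion and wound repair. Its gene (ENSMUSG00000021253.7, minus strand, chr12:86056745-86079041) held 3 regions. The TSS region (chr12:86078683-86079779) was at 3.89 and 3.45 in FAK-WT, 3.25 and 3.55 in FAK-/-, 3.98 and 3.85 in FAK-nls, and 3.63 and 4.01 in FAK-kd. FAK-WT overlapped each of the other lines there. After centring it still overlapped FAK-/- and lay under FAK-nls and FAK-kd, by -0.28 and -0.08 in log2, and neither difference passed (limma, adjusted p = 0.328 and 0.999). The region at -3.61 kb (chr12:86082380-86082928) was at 3.16 and 3.21 in FAK-WT, 2.92 and 3.69 in FAK-/- and 2.84 and 3.34 in FAK-kd, and was not called in FAK-nls. It was also the TSS of *Ift43*, so the call cannot be given to *Tgfb3* alone. At 24383 peaks per library only the second FAK-/- library kept this call.

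The 2 regions with the best median rank lay at receptor genes, *Tgfbr2* and *Tgfbr1*. *Tgfbr2* encodes the type II receptor, the kinase that binds the ligand, mutated in some carcinomas. In its gene (ENSMUSG00000032440.13, minus strand, chr9:116084293-116175360) an intronic region at +22.3 kb (chr9:116152667-116153457) had the best median rank of all 64 regions. It ranked between 32 and 487 in the 8 lists, within the strongest 2.00% of each, at 9.08 and 8.53 in FAK-WT, 7.85 and 7.39 in FAK-/-, 6.36 and 7.42 in FAK-nls, and 7.13 and 9.80 in FAK-kd. Both FAK-WT values lay above those of FAK-/- and FAK-nls and inside the range of FAK-kd. On the centred log2 scale the difference of FAK-WT was 0.10 from FAK-/- (SE 0.13, limma, adjusted p = 0.933), 0.18 from FAK-nls (SE 0.13, limma, adjusted p = 0.514) and 0.05 from FAK-kd (SE 0.13, limma, adjusted p = 0.999).

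The TSS region of *Tgfbr2* (chr9:116174328-116176074) ran the other way. It was at 4.39 and 4.21 in FAK-WT, 4.94 and 4.80 in FAK-/-, 5.53 and 5.10 in FAK-nls, and 4.68 and 5.28 in FAK-kd, so both FAK-WT values lay under the other 6. The difference of FAK-WT from FAK-nls was -0.48 in log2 fold enrichment (SE 0.14, 95% interval -0.79 to -0.18), the lowest adjusted p of any pathway region, and did not pass the threshold of 0.05 (limma, adjusted p = 0.139). Across the alternatives tried, that adjusted p went from 0.0994, at 24383 peaks per library, to 0.584, without the first FAK-WT library (limma). The differences from FAK-/- of -0.29 (95% interval -0.59 to 0.01, limma, adjusted p = 0.675) and from FAK-kd of -0.23 (95% interval -0.54 to 0.07, limma, adjusted p = 0.922) did not pass either. The other 4 regions of this gene were each called in 1 library, 3 of them in the first FAK-WT library, which had the longest list.

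*Tgfbr1* encodes the type I receptor, the kinase that phosphorylates SMAD2 and SMAD3. Its TSS region (chr4:47352787-47353725, gene ENSMUSG00000007613.15, plus strand, chr4:47353222-47414931) had the highest median fold enrichment of the 10 start site regions. It was at 6.50 and 6.09 in FAK-WT, 6.14 and 6.26 in FAK-/-, 5.29 and 5.88 in FAK-nls, and 6.44 and 6.21 in FAK-kd, with ranks from 224 to 1963. The FAK-nls values were the lowest 2 of 8, but after centring they overlapped FAK-WT, with a log2 difference of -0.00 (95% interval -0.31 to 0.30, limma, adjusted p = 0.990). A pair of intronic regions was called in some libraries of several lines. The region at +54.2 kb was at 6.32 in the first FAK-WT library, 3.95 in the first FAK-/- library and 4.08 and 7.45 in FAK-kd. That at +46.7 kb was called in 5 libraries at 3.80 to 5.08, in both libraries of FAK-kd only, and at 24383 peaks per library it was reverse against FAK-kd.

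*Tgfbr3* encodes betaglycan, the co-receptor that presents ligand to the type II receptor. The gene (ENSMUSG00000029287.14, minus strand, chr5:107106570-107289629) is the longest of the 10, and 6 of its 14 regions were called in all 8 libraries, the most of any gene in the list. The TSS region (chr5:107288855-107289868) was at 5.48 and 5.49 in FAK-WT, 4.81 and 5.05 in FAK-/-, 4.26 and 4.43 in FAK-nls, and 4.66 and 5.88 in FAK-kd. FAK-WT lay above FAK-/- and FAK-nls and within FAK-kd, after centring it overlapped FAK-/-, and none of these differences passed (limma, adjusted p = 0.977, 0.632 and 0.999). The best-ranked region was intronic at +132 kb (chr5:107157277-107157901), at 8.26 and 5.76 in FAK-WT, 7.43 and 6.20 in FAK-/-, 4.89 and 5.09 in FAK-nls, and 6.30 and 5.43 in FAK-kd. Its difference between FAK-WT and FAK-nls was 0.29 (SE 0.16, 95% interval -0.05 to 0.63, limma, adjusted p = 0.403), the highest of the pathway in that comparison. The intronic region at +165 kb went in the opposite direction, at 3.91 and 3.55 in FAK-WT, 4.41 and 3.80 in FAK-/-, 4.23 and 4.81 in FAK-nls, and 5.10 and 4.06 in FAK-kd. FAK-WT was lower than FAK-nls there by a log2 difference of -0.46 (SE 0.17, 95% interval -0.80 to -0.11, limma, adjusted p = 0.201). At +93.5 kb FAK-WT was at 4.26 and 3.70 and FAK-/- at 2.84 and 3.11, a difference of 0.31 (95% interval 0.02 to 0.60, limma, adjusted p = 0.624).

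**Figure D3:**
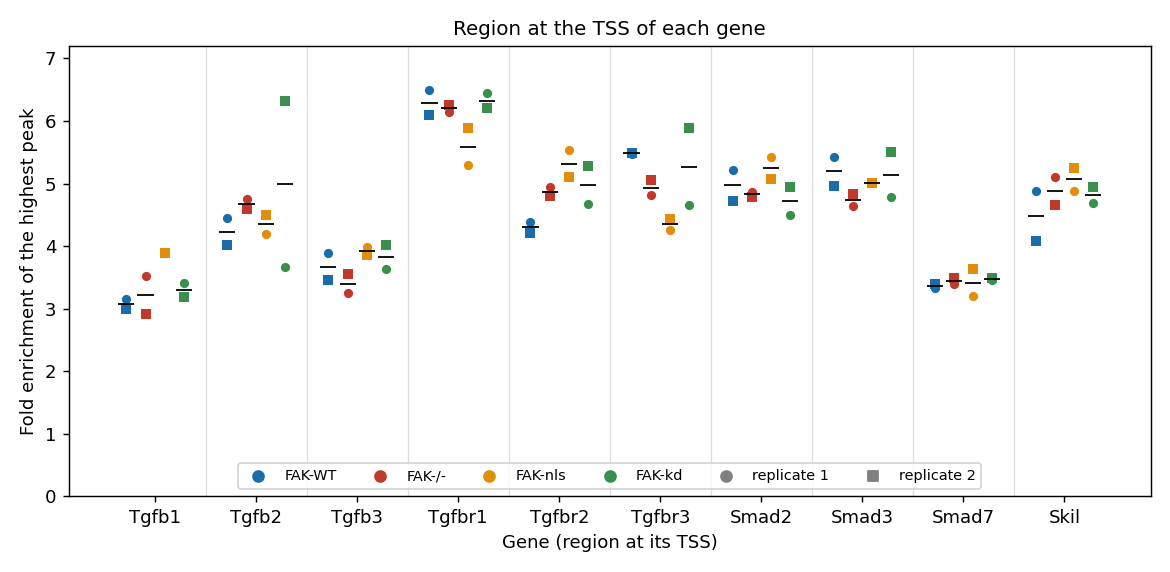
Fold enrichment of the highest peak in the region at the TSS of each gene, by line (colour) and replicate (circle or square), with a black bar for the mean of 2 libraries where both had a call. *Tgfbr1* is highest, between 5.29 and 6.50, *Tgfb1* and *Smad7* are lowest by their medians (3.18 and 3.43), and for *Tgfbr2* both FAK-WT points lie under the other 6.

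The inhibitors of the pathway were accessible in all lines. *Smad7* encodes the inhibitory SMAD that blocks the type I receptor, and is itself a target of the pathway. Its gene (ENSMUSG00000025880.11, plus strand, chr18:75367529-75395935) held 7 regions. The TSS region (chr18:75366357-75367848, also the TSS of *Gm20544*), which holds the SMAD element described above, was at 3.33 and 3.39 in FAK-WT, 3.40 and 3.49 in FAK-/-, 3.20 and 3.63 in FAK-nls, and 3.46 and 3.49 in FAK-kd. It was the narrowest range of fold enrichment among the 10 start site regions. After centring, FAK-WT lay under FAK-nls and overlapped the other lines. The best-ranked *Smad7* region was in an intron at +19.5 kb (chr18:75386203-75387936), at 4.77 and 4.26 in FAK-WT, 4.43 and 4.66 in FAK-/-, 3.70 and 4.04 in FAK-nls, and 3.86 and 3.86 in FAK-kd. FAK-WT and FAK-/- overlapped and both lay above FAK-nls and FAK-kd. After centring FAK-WT and FAK-nls overlapped, and FAK-WT lay under FAK-/- and above FAK-kd. The log2 differences of FAK-WT were -0.12 from FAK-/- (limma, adjusted p = 0.922), 0.04 from FAK-nls (95% interval -0.26 to 0.34, limma, adjusted p = 0.922) and 0.19 from FAK-kd (95% interval -0.11 to 0.50, limma, adjusted p = 0.983). A region on a coding exon at +8.22 kb was called in 7 libraries, at 3.88 to 4.95, and not in the first FAK-nls library.

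*Skil* encodes SnoN, a co-repressor of SMAD complexes that is degraded on signalling and re-expressed as a target. Its TSS region (chr3:31093768-31095571, gene ENSMUSG00000027660.16, plus strand, chr3:31095058-31122577) ranked between 995 and 4527, at 4.88 and 4.08 in FAK-WT, 5.10 and 4.65 in FAK-/-, 4.88 and 5.25 in FAK-nls, and 4.69 and 4.94 in FAK-kd. The second FAK-WT library was the lowest of the 8, and after centring both FAK-WT values lay under those of the other 6. FAK-WT was lower than FAK-nls by a log2 difference of -0.36 (SE 0.14, 95% interval -0.66 to -0.06, limma, adjusted p = 0.224). The only other *Skil* region, intronic at +14.1 kb, spread more widely, at 8.47 and 5.57 in FAK-WT, 6.98 and 6.10 in FAK-/-, 3.71 in the second FAK-nls library and 5.12 and 6.96 in FAK-kd. It had no call in the first FAK-nls library, and the FAK-nls value was the lowest of the 7.

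The 21 regions called in all 8 libraries could be tested for a difference in strength. The highest fold enrichment in a region was log2-transformed and centred on each library's median, and FAK-WT was compared with each line by limma over the 17917 regions of the genome that were called in all libraries, with p-values adjusted over all of them. No pathway region passed an adjusted p of 0.05 in any comparison, where the backgrounds were 0.0279% of regions (5) against FAK-/-, 0% (0) against FAK-nls and 0.0167% (3) against FAK-kd. At an unadjusted p under 0.05 by limma there were 2 pathway regions against FAK-/- (9.5%, beside 7.68% of all), 3 against FAK-nls (14.3%, beside 15.9%) and 1 against FAK-kd (4.8%, beside 6.21%). The median difference of FAK-WT over the 21 regions was -0.08 from FAK-/-, -0.15 from FAK-nls and -0.03 from FAK-kd, beside -0.01, -0.03 and -0.01 over all regions tested. Differences ran from -0.29 to 0.38 against FAK-/-, from -0.48 to 0.29 against FAK-nls and from -0.32 to 0.39 against FAK-kd. The 95% interval of a difference, not adjusted over the genome, reached 0.30 to each side at the median. With 2 libraries per line smaller differences were therefore within the error. The difference of -0.48 from FAK-nls did not pass adjustment either, so the adjusted test does not exclude differences above 0.30. A region without a call in 1 library could not enter this test, so it does not cover the regions that separated the lines.

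**Figure D4:**
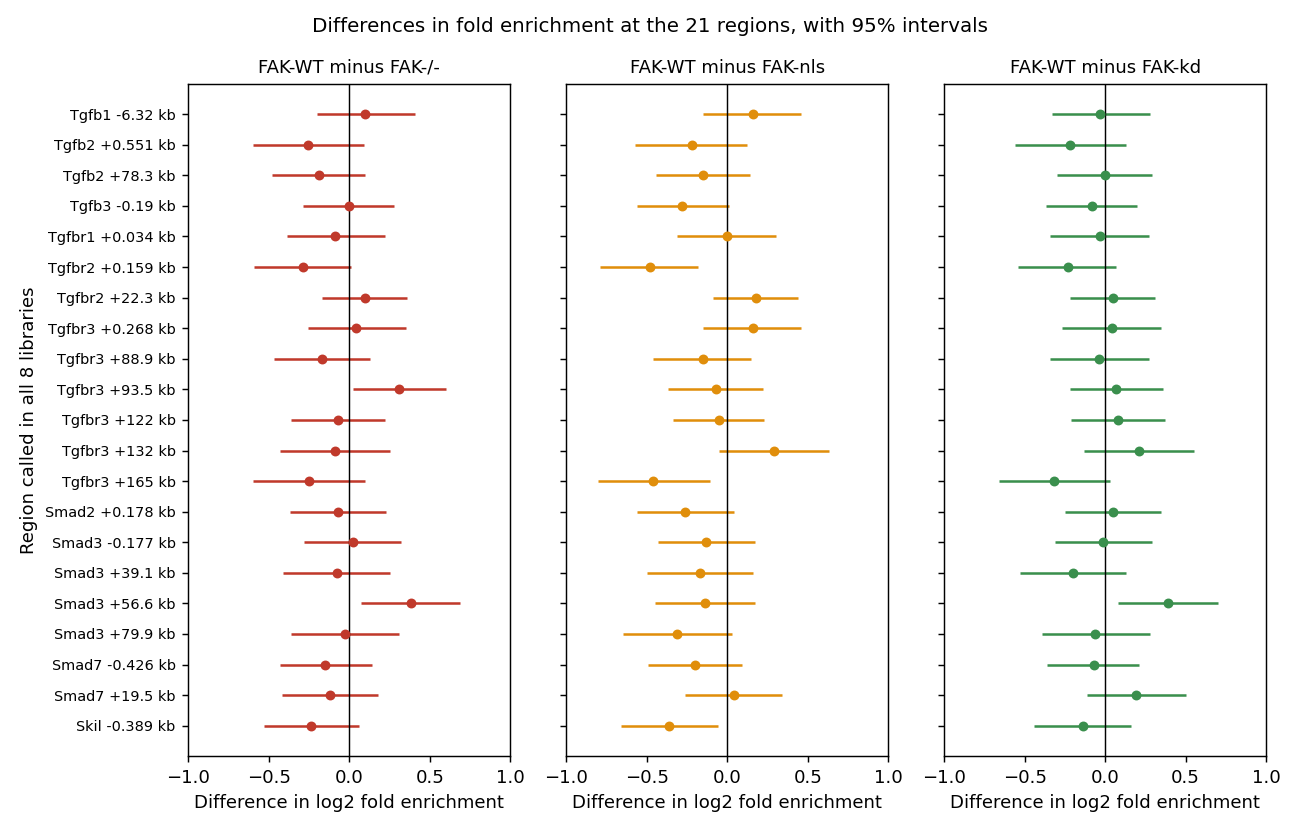
Difference in centred log2 fold enrichment between FAK-WT and each other line for the 21 pathway regions called in all 8 libraries (points), with 95% intervals from limma (lines). Most intervals cross 0, the exceptions being *Tgfbr3* +93.5 kb and *Smad3* +56.6 kb against FAK-/-, *Tgfbr2* +0.159 kb, *Tgfbr3* +165 kb and *Skil* -0.389 kb against FAK-nls, and *Smad3* +56.6 kb against FAK-kd, none of which passed adjustment.

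Another 22 genes of the pathway were read in the same way and held 126 further regions. Of these, 42 were called in all 8 libraries (33.3%, against 25.8% of all regions). WT-only regions numbered 3 against FAK-/- (2.38%), 16 against FAK-nls (12.7%, at 9 of the 22 genes) and 3 against FAK-kd (2.38%), each below the share over all regions given above. Reverse regions numbered 1 against FAK-/- (0.794%, with 1.18% over all regions), 0 against FAK-nls and 3 against FAK-kd (2.38%, with 0.830% over all regions). Among the genes of latency and activation, *Ltbp1*, whose product tethers latent ligand to the matrix, held 23 regions. Its upstream region at -4.38 kb had a call in each of the 6 libraries outside FAK-/-, at 5.53 and 3.82 in FAK-WT, 5.22 and 3.89 in FAK-nls and 3.88 and 4.22 in FAK-kd, and so was WT-only against FAK-/-. *Furin* encodes a protease that cleaves the ligand precursors. Its intronic region at +10.6 kb was called only in the FAK-WT pair, at 3.86 and 3.49 with ranks of 38921 and 31765, and was WT-only against all 3 other lines. A *Furin* region at its own TSS, centred at +2.59 kb, was WT-only against FAK-nls and FAK-kd. It was at 2.41 and 2.89 in FAK-WT and 2.39 in the first FAK-/- library.

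Among the transducers and inhibitors, *Smurf1*, which encodes a ubiquitin ligase that acts with SMAD7 on the receptors, held 3 regions that were WT-only against FAK-nls, of which the region at +34.2 kb was also WT-only against FAK-kd. It was at 4.27 and 3.60 in FAK-WT and 3.57 and 3.99 in FAK-/-. *Nedd4l*, another ubiquitin ligase of the pathway, held 2 and *Smad4*, the common partner of the receptor-activated SMADs, held 1. Among the targets, *Ccn2* had no called region, and *Acta2* and *Tagln* had none at a TSS. Reverse regions were at *Ltbp2* (+40.7 kb, against FAK-/-) and, against FAK-kd, at *Ltbp1* (+139 kb), *Ltbp3* (+1.20 kb) and *Acta2* (-10.2 kb), all called in 2 libraries.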

How the data were processed

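ATAC-seq libraries of 4 SCC lines, 2 per line, were grouped by the sample labels. The authors used the bcbio pipeline for alignment to mm10 and ran peak calling on every library by itself, with MACS2 in broad mode with a q-value threshold of 0.05 and a shift and extension of the reads as is usual for transposase cuts. The version in the submitters' processing notes is 2.1.1, and the handling of duplicate reads is not given in the sources used here. The deposited fold enrichment is a ratio to local background within a library. The deposited −log10 p-value and −log10 q-value test the same pileup, and the pileup is coverage signal as deposited by the authors. Peaks with a q-value above 0.05 made up 0.784% to 3.83% of a list. Peak length was taken as deposited. There were no per-region read counts, so a call depends on depth and no count test was run.

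Peaks on chromosomes 1 to 19, X and Y that overlapped by at least 1 bp were joined into regions. Per region and library the highest fold enrichment and the best rank by −log10 p were kept. Genes and TSS were from GENCODE on GRCm38, the same build. Motifs were exact matches in the central 300 bp. Differences in centred log2 fold enrichment were fitted with limma 3.58.1 in R 4.3.3 (lmFit and eBayes with a trend, all 8 libraries, Benjamini-Hochberg adjustment, two-sided, threshold 0.05), after a test on simulated data with known changes. WT-only and reverse sets carry no test. The study describes its 2 libraries per line as biological replicates. The genes, the further list of 22 pathway genes, the markers and the motifs were chosen with earlier results of these data known. Named regions were, for each gene, that at its own TSS, that with the best median rank, and every WT-only or reverse region. Other regions in the text were picked after their values were seen. The search within 1 kb of marker start sites was also added afterward. Alternatives were equal peak numbers, a −log10 q of at least 3, 50% coverage of the region, 5 or 50 kb upstream, other normalizations and values, a replicate block and leaving out each library. Some items are not reported here.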

Additional observations from a re-analysis of the deposited data

How the results depend on the processing

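Of the region counts, that of called regions at the 10 genes fell from 64 to 42 at equal peak numbers and stayed within 1.5 times under the other settings (56 to 64 on leaving out a library). WT-only counts against FAK-/-, FAK-nls and FAK-kd (1, 6 and 0) were 2, 2 and 0 at equal peak numbers and 2, 11 and 4 when 50% of a region had to be covered. Reverse counts (0 throughout) were 3, 0 and 1 at equal numbers and 1, 0 and 0 at 50% coverage. Leaving out each library gave WT-only counts of 1 to 10, 6 to 20 and 0 to 10, and reverse counts of 0 to 7, 0 to 0 and 0 to 4. These WT-only and reverse counts could only stay or rise, since the rule is looser with a library left out. No share over all regions stands beside the counts at 50% coverage or with a library left out. Windows of 5 or 50 kb and a −log10 q of at least 3 left each count within 1.5 times, but at that q the WT-only region against FAK-/- was *Tgfbr3* +93.5 kb in place of *Smad3* +10.1 kb, and the 9 regions against FAK-nls shared 3 with the 6 (*Smad3* +20.4 and +51.6 kb and *Tgfb3* -3.61 kb). Over the genome, limma called 5, 0 and 3 regions against FAK-/-, FAK-nls and FAK-kd. It called 29, 113 and 13 on −log10 p, 0, 14 and 0 at equal numbers, 1, 0 and 2 with quantile normalization, and 3, 0 and 2 with only the 2 lines compared. With the replicate number as a block it called 1, 0 and 3. The sample labels give replicate numbers and do not say whether these pair the lines. Replicate differences of FAK-WT and the other lines correlated at 0.0828, -0.0306 and -0.2278. This cannot decide the pairing, since lines handled together could be numbered in a different order. With the FAK-kd numbers crossed, chosen after seeing the data, the counts were 5, 0 and 3. Leaving out a library gave 0 to 7, 0 to 1 and 0 to 3. The cause of these shifts was not tested. No pathway region passed under any of these fits. The 42 log2 differences at 14 named regions stayed uncalled in all 627 refits, and of 63 recounts of libraries with a call at a named region 52 were within 1.5 times. An absent call does not show closed chromatin: a region below the calling threshold may still be open.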
